A study of Mus musculus with 10 samples.

Results

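The CatSper genes and the genes around sperm calcium entry were examined in whole testis of mice without a working Crem gene and of their wild type counterparts. The list held 10 genes, namely the pore subunits Catsper1, Catsper2, Catsper3 and Catsper4, the auxiliary subunits Catsperb, Catsperd, Catsperg1 and Catsperg2, and Pkdrej and Hvcn1. Members were taken by gene symbol from array features annotated with a single symbol, and 8 of the 10 were measured, out of 19661 genes on the array. Catsperg1 and Catsperg2 shared 1 feature, which carried both symbols and held no value in any array, so neither is reported.

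The series held 10 Affymetrix Mouse Gene 1.0 ST arrays, each hybridised with total testis RNA. The groups were 5 Crem KO (Crem-/-) animals and 5 WT animals, with 129Pas x C57Bl/J given as the strain of both. All were untreated males, 8 weeks of age and killed at 0 h, when the light came on. The KO allele carries a neomycin resistance gene inserted across the DNA-binding domains of Crem, in every cell of the body. Homozygous animals stop making sperm at the round spermatid stage, so the KO testis lacks later germ cells, and in whole tissue fewer cells of a type and less RNA per cell cannot be told apart. Arrays came from 4 labelled batches that were uneven over genotype. Of the KO arrays, replicates 1, 4 and 5 belonged to batch 4, replicate 3 to batch 2 and replicate 2 to batch 1. Of the WT arrays, replicates 1, 2 and 3 belonged to batch 2, replicate 4 to batch 3 and replicate 5 to batch 4. Levels are log2 RMA values, and a difference of 1 on this scale is a doubling. Array medians ran between 7.11 and 7.15. Correlations over all features were 0.9919 to 0.9950 within KO, 0.9936 to 0.9954 within WT and 0.9363 to 0.9519 between KO and WT. Crem had 9.29, 9.29, 9.41, 9.01 and 9.18 in KO replicates 1 to 5, against 10.89, 11.04, 10.96, 10.93 and 10.94 in WT replicates 1 to 5. Where the probes of this feature lie relative to the insertion is not given in the sources used here. Every array matched its label on Crem, whose log2 change was -1.71 ± 0.07 (SE, limma adjusted p = 3.0e-10).

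CatSper is a calcium channel found only in sperm, where it lies in the membrane of the flagellar principal piece. Its pore is made of a different protein at each position, CATSPER1 to CATSPER4, surrounded by a canopy of auxiliary subunits, and it opens when the inside of the sperm becomes alkaline. The calcium that enters drives hyperactivated swimming, and male mice that lack any of the pore subunits are infertile. In mouse, Catsper2 transcripts are known from spermatocytes onward, while those of Catsper1, Catsper3 and Catsper4 appear in spermatids. CREM is a transcription factor that binds cyclic AMP response elements (CRE) and switches on many genes of the haploid germ cell.

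Of the 4 pore subunits, Catsper1, Catsper3 and Catsper4 were lower in KO and Catsper2 was not, and both measured auxiliary subunits, Catsperb and Catsperd, were slightly higher. Over all 8 measured members 3 were called lower and 2 higher at a limma adjusted p under 0.05. Among all genes 13.2% were called lower and 31.1% higher, 44.3% in all, so that a small rise was common on these arrays. RNA integrity scores, which the authors list for some of their adult mice, were all slightly higher in KO than in WT. That list does not match mice to arrays, and the part of RNA quality in small changes was not tested. Falls of at least 1 on the log2 scale were less common, at 4.36% of genes, and took in all 3 of the pore subunits that fell. Rises of that size were made by 1.37% of genes and by no member. The median change was -0.06 over the members and 0.07 over all genes. KO and WT did not overlap for 3 of the 8 members, and for 32.7% of all genes.

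**Figure D1:**
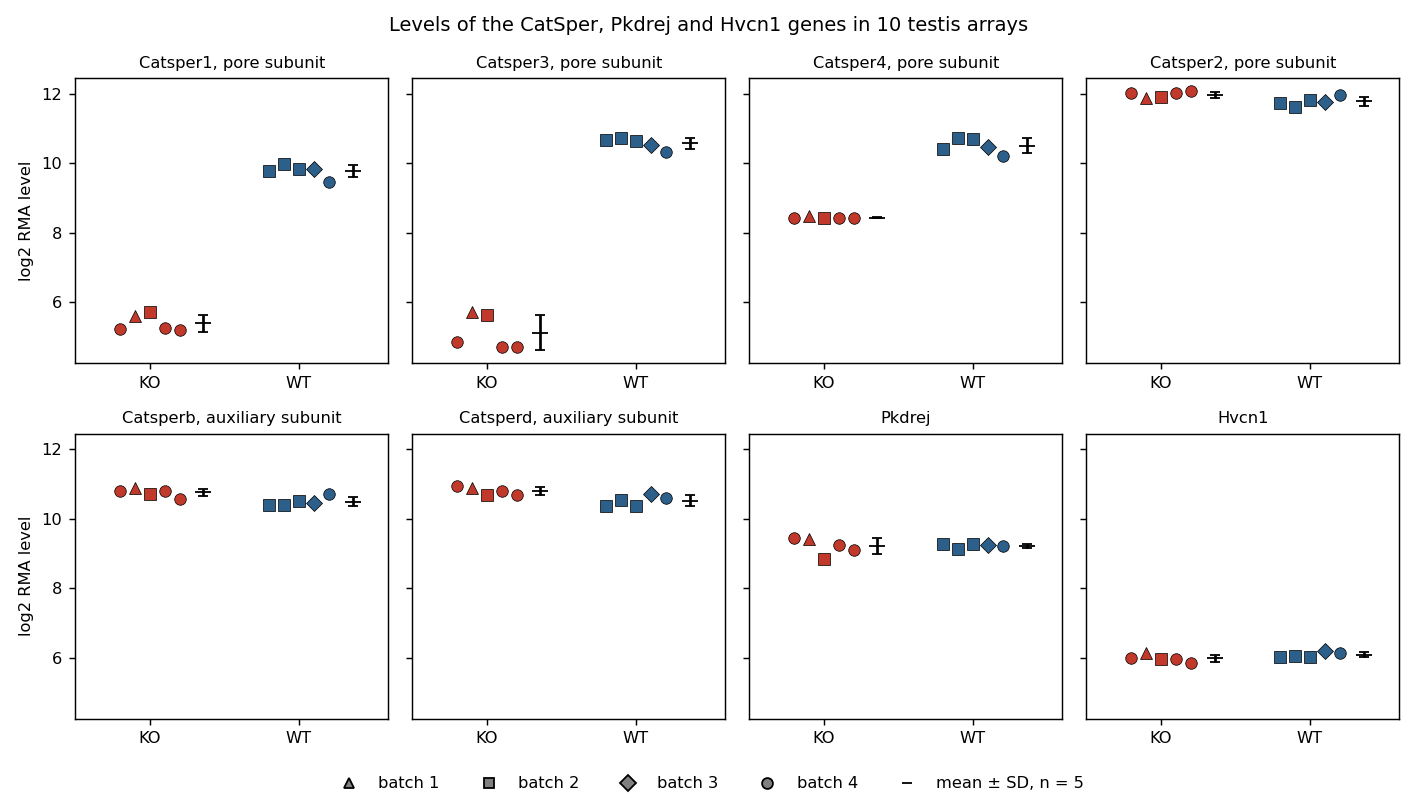
Log2 RMA level (vertical axis) of each of the 8 measured genes in the 5 KO arrays and the 5 WT arrays, 1 symbol per array with its shape giving the labelled batch, and the bar beside each group giving mean ± SD. The KO arrays lie below all WT arrays for Catsper1, Catsper3 and Catsper4 and overlap with WT in the other 5 genes. Levels are to be compared within a gene only.

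Catsper3 had the largest measured difference of the pore subunits. Its level was 4.85, 5.71, 5.63, 4.72 and 4.71 in KO replicates 1 to 5, against 10.65, 10.73, 10.63, 10.52 and 10.31 in WT replicates 1 to 5. The groups were 4.60 apart at their nearest arrays, and within KO the arrays of batch 4 were lower than replicates 2 and 3. The mean was 5.12 ± 0.50 in KO and 10.57 ± 0.16 in WT (SD, n = 5 each). The log2 change was -5.44 ± 0.19 (SE, 95% CI -5.86 to -5.03, limma adjusted p = 3.9e-11), a measured ratio of 43.5-fold.

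Catsper1, which has a histidine-rich amino terminus and was the subunit first described, followed a similar pattern. KO replicates 1 to 5 had 5.23, 5.59, 5.72, 5.25 and 5.19, against 9.78, 9.96, 9.82, 9.82 and 9.47 in WT replicates 1 to 5. No KO array came within 3.74 of a WT array, and replicates 2 and 3 were again the highest of KO. Means were 5.40 ± 0.24 in KO and 9.77 ± 0.18 in WT (SD, n = 5 each). This came to -4.37 ± 0.12 in log2 (SE, 95% CI -4.63 to -4.12, limma adjusted p = 4.5e-12), a measured ratio of 20.7-fold. Whether the signal left for Catsper1 and Catsper3 in KO lay above array background was not tested. Among markers of the epididymis, a tissue that was not sampled, Lcn5 averaged 5.84, Lcn8 5.41 and Defb42 5.09 in KO. Defb42 was itself called lower in KO. Levels are compared within a gene only, so these values set no background for Catsper1 or Catsper3. As background was not tested, the ratios of Catsper1 and Catsper3 are to be read as lower bounds of the falls, with no order between them.

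Catsper4 fell less. Its level was 8.41, 8.46, 8.42, 8.43 and 8.42 in KO replicates 1 to 5, against 10.40, 10.73, 10.69, 10.45 and 10.21 in WT replicates 1 to 5. The KO arrays were almost equal to each other and all lay at least 1.75 below WT. The mean was 8.43 ± 0.020 in KO and 10.50 ± 0.21 in WT (SD, n = 5 each). The log2 change was -2.07 ± 0.09 (SE, 95% CI -2.26 to -1.88, limma adjusted p = 3.0e-10), a measured ratio of 4.19-fold. Whether the signal left for Catsper4 in KO lay above the background of its feature was not tested, so the ratio may understate the fall.

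Catsper2, the remaining pore subunit, did not fall. It had 12.00, 11.86, 11.90, 12.00 and 12.06 in KO replicates 1 to 5, against 11.74, 11.61, 11.82, 11.76 and 11.97 in WT replicates 1 to 5. The groups overlapped, with WT replicate 5 above KO replicates 2 and 3. Means were 11.96 ± 0.084 in KO and 11.78 ± 0.13 in WT (SD, n = 5 each). The change of 0.18 ± 0.07 (SE, 95% CI 0.03 to 0.34) missed the threshold with a limma adjusted p of 0.0583, but it was called without WT replicate 5 alone (0.23, adjusted p = 0.018) and without KO replicate 2 alone (0.21, adjusted p = 0.0391). It was smaller and not called with batch as a fixed block (0.11, adjusted p = 0.307). The same held when arrays were centred on 8 housekeeping genes (0.09, adjusted p = 0.379). Within batch 4, with 1 WT array, the change was 0.05, and within batch 2, with 1 KO array, 0.17.

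Among the auxiliary subunits, Catsperb encodes a single-pass membrane protein of the canopy. Its level was 10.80, 10.87, 10.71, 10.80 and 10.58 in KO replicates 1 to 5, against 10.38, 10.40, 10.51, 10.45 and 10.71 in WT replicates 1 to 5. WT replicate 5 was within the range of KO and the other 4 WT arrays were below it. With means of 10.75 ± 0.11 in KO and 10.49 ± 0.13 in WT (SD, n = 5 each), it was higher by 0.26 ± 0.08 (SE, 95% CI 0.10 to 0.43, limma adjusted p = 0.0145). Within batch 4, where WT replicate 5 was the only WT array, the difference was 0.02. Within batch 2, with 1 KO array, it was 0.29. With batch as a fixed block the difference was 0.15 (adjusted p = 0.248).

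Catsperd encodes a canopy protein without which the mouse channel is not assembled in sperm. It had 10.93, 10.88, 10.67, 10.81 and 10.69 in KO replicates 1 to 5, against 10.36, 10.54, 10.38, 10.72 and 10.59 in WT replicates 1 to 5. WT replicate 4 lay among the KO arrays and the other 4 WT arrays below them. Means of 10.79 ± 0.12 in KO and 10.52 ± 0.15 in WT (SD, n = 5 each) gave a rise of 0.28 ± 0.08 (SE, 95% CI 0.10 to 0.45, limma adjusted p = 0.0151). The value was 0.23 with batch as a fixed block (adjusted p = 0.0673). When arrays were centred on 8 housekeeping genes the rises were 0.17 for Catsperb and 0.18 for Catsperd, and neither was called (adjusted p = 0.159 and 0.124).

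**Figure D2:**
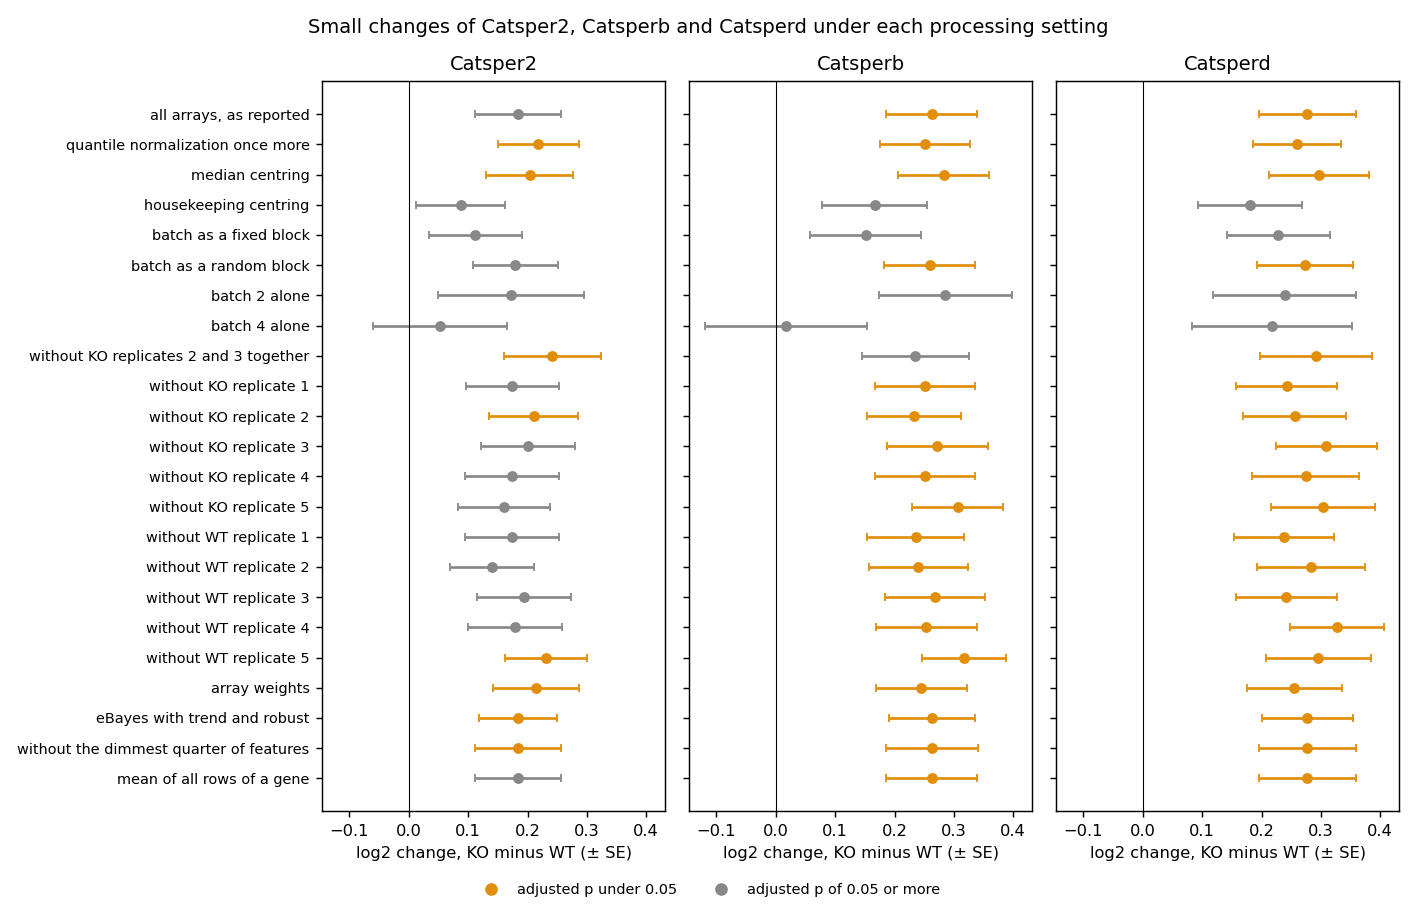
Log2 change, KO minus WT (horizontal axis, ± SE), of Catsper2, Catsperb and Catsperd with all arrays (top line) and under each of 22 other settings (down the page), coloured by whether the limma adjusted p was under 0.05. Every change is above 0, from 0.02 for Catsperb in batch 4 upward, and the call of each of the 3 genes depends on the setting.

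The measured fall of Catsper4 was smaller than those of Catsper1 and Catsper3. Each array's difference between a pair of subunits was compared between KO and WT with a two-sided exact permutation test over the 252 splits of the arrays, for all 15 pairs of the 6 measured subunits, a comparison chosen after the members' values were seen. The splits take no account of batch, which was uneven over genotype. The change of Catsper1 minus that of Catsper4 was -2.31 ± 0.115 (SE), and the change of Catsper3 minus that of Catsper4 was -3.38 ± 0.225. Catsper4 had the smallest measured fall within batches too, with Catsper1, Catsper3 and Catsper4 changed by -4.13, -5.04 and -2.18 in batch 2 and by -4.24, -5.55 and -1.79 in batch 4. The pairs of Catsper1 and of Catsper3 with Catsper4 reached p = 0.00794, the smallest that the exact test can give (0.00992 after Benjamini-Hochberg adjustment over the 15 pairs). So did each of the 9 pairs of Catsper1, Catsper3 or Catsper4 with Catsper2, Catsperb or Catsperd. Catsper1 minus Catsper3 (1.07 ± 0.128, SE) reached it too, with no order read from it, as background was not tested. These differences were known beforehand, so this p adds no evidence to the levels. The change of Catsper2 minus that of Catsperb was -0.0791 ± 0.0836 (SE, exact p = 0.389, adjusted p = 0.434), and minus that of Catsperd -0.0932 ± 0.11 (exact p = 0.405, adjusted p = 0.434). For Catsperb and Catsperd the difference was -0.0142 ± 0.0847 (exact p = 0.905).

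The signal left in each KO array, taken on the linear scale as a percent of the mean in WT, was set side by side for the 3 genes. Background was not tested for any of them, so it is an upper bound on the transcript left. Catsper3 kept 1.90, 3.45, 3.27, 1.74 and 1.72% in KO replicates 1 to 5, and Catsper1 kept 4.29, 5.51, 6.05, 4.35 and 4.18%. For both genes KO replicates 2 and 3, of batches 1 and 2, kept the most. Catsper4 kept 23.6, 24.4, 23.8, 23.8 and 23.7%, nearly the same share in every KO array. Each of the elongating spermatid markers Prm1, Prm2, Tnp1, Tnp2, Odf1, Akap4 and Smcp also had its highest KO levels in replicates 2 and 3. Prm1, a protamine that packs sperm DNA, kept 2.06, 5.57, 5.70, 1.02 and 0.730% in KO replicates 1 to 5, and Tnp2, a transition protein of the same process, kept 2.68, 6.29, 7.62, 0.797 and 0.582%. Odf1 (SD 0.16) and Smcp (SD 0.38), both of the sperm tail, were spread less within KO than Catsper3 (SD 0.50 in log2). Prm1 (SD 1.37), Prm2 (0.86), Tnp1 (1.62), Tnp2 (1.69) and Akap4 (1.21) were spread more. Without KO replicates 2 and 3 the log2 changes were -4.55 for Catsper1, -5.81 for Catsper3 and -2.08 for Catsper4.

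**Figure D3:**
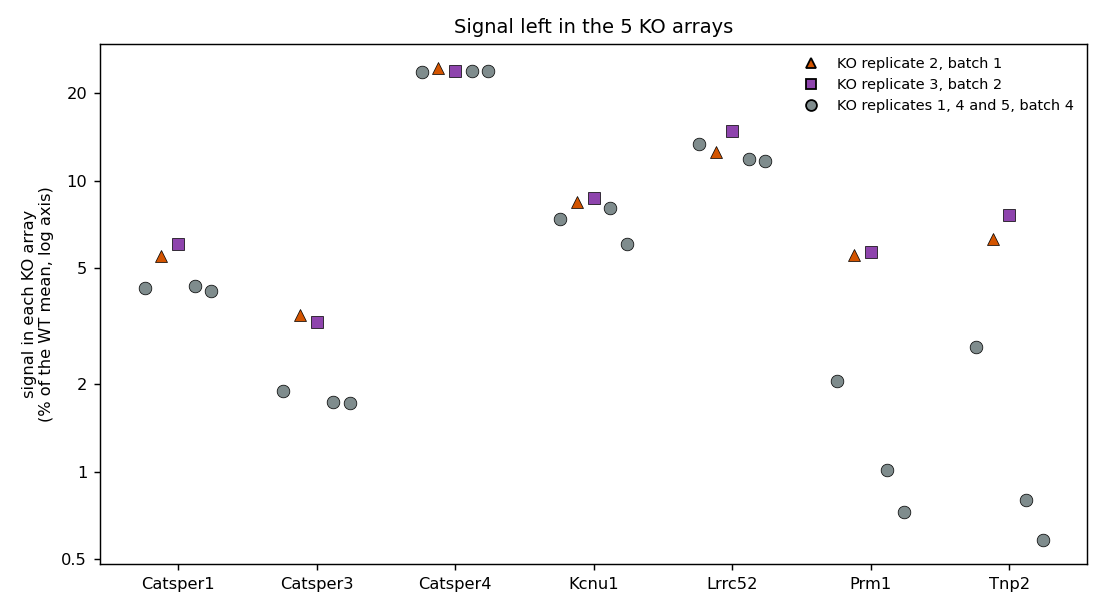
Signal in each of the 5 KO arrays as a percent of the WT mean (vertical log axis) for the pore subunits that fell, the partner genes Kcnu1 and Lrrc52 and the elongating spermatid genes Prm1 and Tnp2, with symbols by replicate and batch. Catsper4 stays between 23.6 and 24.4% in all 5 arrays, while Prm1 runs between 0.730 and 5.70%, with KO replicates 2 and 3 highest.

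Markers of cell types moved beside these genes, and their counts are to be read beside 13.2% of all genes called lower and 31.1% higher. All 7 elongating spermatid markers (Prm1, Prm2, Tnp1, Tnp2, Odf1, Akap4 and Smcp) were called lower, with summed levels (the log2 of the sum of the linear levels in an array) of 12.4 to 13.5 in KO, against 16.1 to 16.3 in WT, and a median change of -4.86. Of 5 round spermatid markers 3 were lower and 1 higher, with summed levels of 13.46 to 13.63 in KO, against 13.80 to 13.92 in WT. Their changes differed widely, at -4.29 for Spaca1, -1.75 for Izumo1, -0.51 for Acr, 0.15 for Acrv1 (not called) and 0.25 for Zpbp. The sum gives most weight to the brightest of them, Acrv1, which averaged 12.65 in KO and 12.50 in WT. Of 6 spermatogonium markers 1 was lower and 2 were higher. Of 6 spermatocyte markers none was lower and 3 were higher, with summed levels of 14.18 to 14.26 in KO, against 14.00 to 14.17 in WT. Outside the germ line 2 of 6 Sertoli, 3 of 4 Leydig, 1 of 3 peritubular and 3 of 3 macrophage markers were called higher and none of them lower, beside 31.1% of all genes called higher. Of 3 epididymal markers Defb42 was called lower (-0.30, limma adjusted p = 0.0132) and none higher, with summed levels of 6.96 to 7.16 in KO and 7.12 to 7.19 in WT. Their part in the changes of the CatSper genes was not tested.

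Promoters were read from RefSeq for the GRCm38.p6 build, as windows of 250 bases before to 50 bases after each annotated start, and 6 of the 10 members matched (8 windows). Catsper1, Catsperg2, Pkdrej and Hvcn1 had no entry. The full CRE, TGACGTCA, was in no window of a member, and in 1.79% of all 32851 windows. Its shorter core, TGACG read on both strands, of which any full CRE holds a copy on each strand, was in 20.8% of all windows. Among the 8 member windows it was in that of Catsper2 and in the first of Catsperd, a share close to that of all windows. Catsper1, which fell, had no window to search. A match describes letters and is no evidence of binding. The sequences around each match are shown because CREM binds elements of this kind, with the core in capitals as it reads on the gene's strand.
Catsper2, chr2:121413853-121413881, minus strand: gccgattggctgCGTCAcgcagcgtcggg
Catsperd match 1, chr17:56626875-56626903, plus strand: gaacagccatacTGACGgcgcaccgcact
Catsperd match 2, chr17:56626894-56626922, plus strand: gcaccgcacttaCGTCAtctctgctcgcc
Catsperd match 3, chr17:56626929-56626957, plus strand: ttgcgcacgtgaTGACGctcgcgtgcttc

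Counted from the annotated start, the first base of the match was at -77 in Catsper2 and at -160, -141 and -106 in the first window of Catsperd. The windows also differed in CpG content. The Catsper2 window held 41 CpG dinucleotides at 74.7% GC and the first Catsperd window 29 at 66.7%, above the upper quartile of 20 over all windows (median 7, lower quartile 3). The second Catsperd window held no core and 12 CpG at 53.0% GC. Catsper3 had 3 at 52.3% GC, Catsper4 had 2 at 46.7% and Catsperb had 1 at 38.0%, none above the lower quartile. Low CpG content was therefore shared by Catsper3 and Catsper4, which fell, and by Catsperb, which was slightly higher. The upstream parts of the Catsper4 and Catsperb windows that lie outside annotated genes are given to show this, with every CG in capitals. The Catsper4 stretch has none.
Catsper4, chr4:134227432-134227633, minus strand: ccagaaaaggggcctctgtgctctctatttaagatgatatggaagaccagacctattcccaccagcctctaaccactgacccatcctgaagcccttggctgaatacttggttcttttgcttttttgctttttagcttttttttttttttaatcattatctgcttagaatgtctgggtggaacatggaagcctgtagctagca
Catsperb, chr12:101404423-101404644, plus strand: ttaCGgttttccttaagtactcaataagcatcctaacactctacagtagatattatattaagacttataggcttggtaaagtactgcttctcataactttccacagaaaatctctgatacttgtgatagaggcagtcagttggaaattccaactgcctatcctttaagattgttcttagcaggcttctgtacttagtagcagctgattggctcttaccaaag

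The X-box, searched on both strands and bound by RFX factors in ciliated cells and in mouse spermatids, was in 0.451% of all windows. Among members it occurred in the second window of Catsperg1, at -18, a gene whose level was not measured here. Of the 8 other CatSper complex genes described next, 7 had a promoter entry, and none held a full CRE, the core or an X-box.

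The other known genes of the CatSper complex were mostly slightly higher in KO, as Catsperb and Catsperd were. Of 8 listed, 6 were measured, 5 were called higher, none was lower, and the median change was 0.41, beside 0.07 over all genes and 31.1% of genes called higher. All 5 separated KO from WT without overlap over the 10 arrays, beside 32.7% of all genes. For Catsperz the gap between the groups was only 0.0076. Within batch 4, with 1 WT array, Catspere2 (0.25, adjusted p = 0.247), Slco6c1 (0.29, adjusted p = 0.208) and Efcab9 (0.27, adjusted p = 0.173) were not called. Within batch 2, with 1 KO array, Efcab9 (0.36, adjusted p = 0.111) and Catsperz (0.25, adjusted p = 0.193) were not called, and Catspere2 was at 0.72 (adjusted p = 0.0468). Tmem262 encodes a small membrane subunit, and had a lowest, median and highest level of 8.80, 8.93 and 8.99 in KO, against 8.20, 8.39 and 8.48 in WT (change 0.57 ± 0.07, SE, limma adjusted p = 1.7e-05). Slco6c1, an organic anion transporter found attached to the mouse channel, had 11.32, 11.33 and 11.63 in KO, against 10.80, 10.93 and 11.11 in WT (0.50 ± 0.08, adjusted p = 0.00034). In both genes each KO array exceeded each WT array.

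Catspere2, an annotated copy of the canopy subunit gene Catspere, had 10.53, 10.61 and 10.82 in KO, against 9.82, 10.18 and 10.40 in WT (change 0.49 ± 0.10, SE, limma adjusted p = 0.0018). The level of its near-identical neighbour Catspere1 was not measured here, and signal from the pair may not be separable. Efcab9 encodes the calcium-sensing partner of CATSPERZ and had 11.78, 11.91 and 12.05 in KO, against 11.39, 11.59 and 11.67 in WT (0.33 ± 0.07, adjusted p = 0.0021). Catsperz had 12.33, 12.40 and 12.50 in KO, against 11.95, 12.23 and 12.32 in WT. Its change of 0.23 ± 0.07 (adjusted p = 0.026) was the smallest of the 5, and was not called without KO replicate 1, KO replicate 3, WT replicate 3 or WT replicate 5 alone (adjusted p 0.0551 to 0.064). C2cd6, which helps bring the channel to the flagellum, had 11.00, 11.13 and 11.44 in KO, against 10.96, 11.21 and 11.22 in WT, and its change of 0.02 ± 0.09 (adjusted p = 0.87) turned to -0.07 with housekeeping centring. Under that centring 4 of the 5 rises were still called, Catsperz being the exception at 0.13 (adjusted p = 0.178). Across all 12 measured CatSper subunit genes, falls were thus limited to Catsper1, Catsper3 and Catsper4, and of the other 9, 7 were called higher and Catsper2 and C2cd6 were not called.

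**Figure D4:**
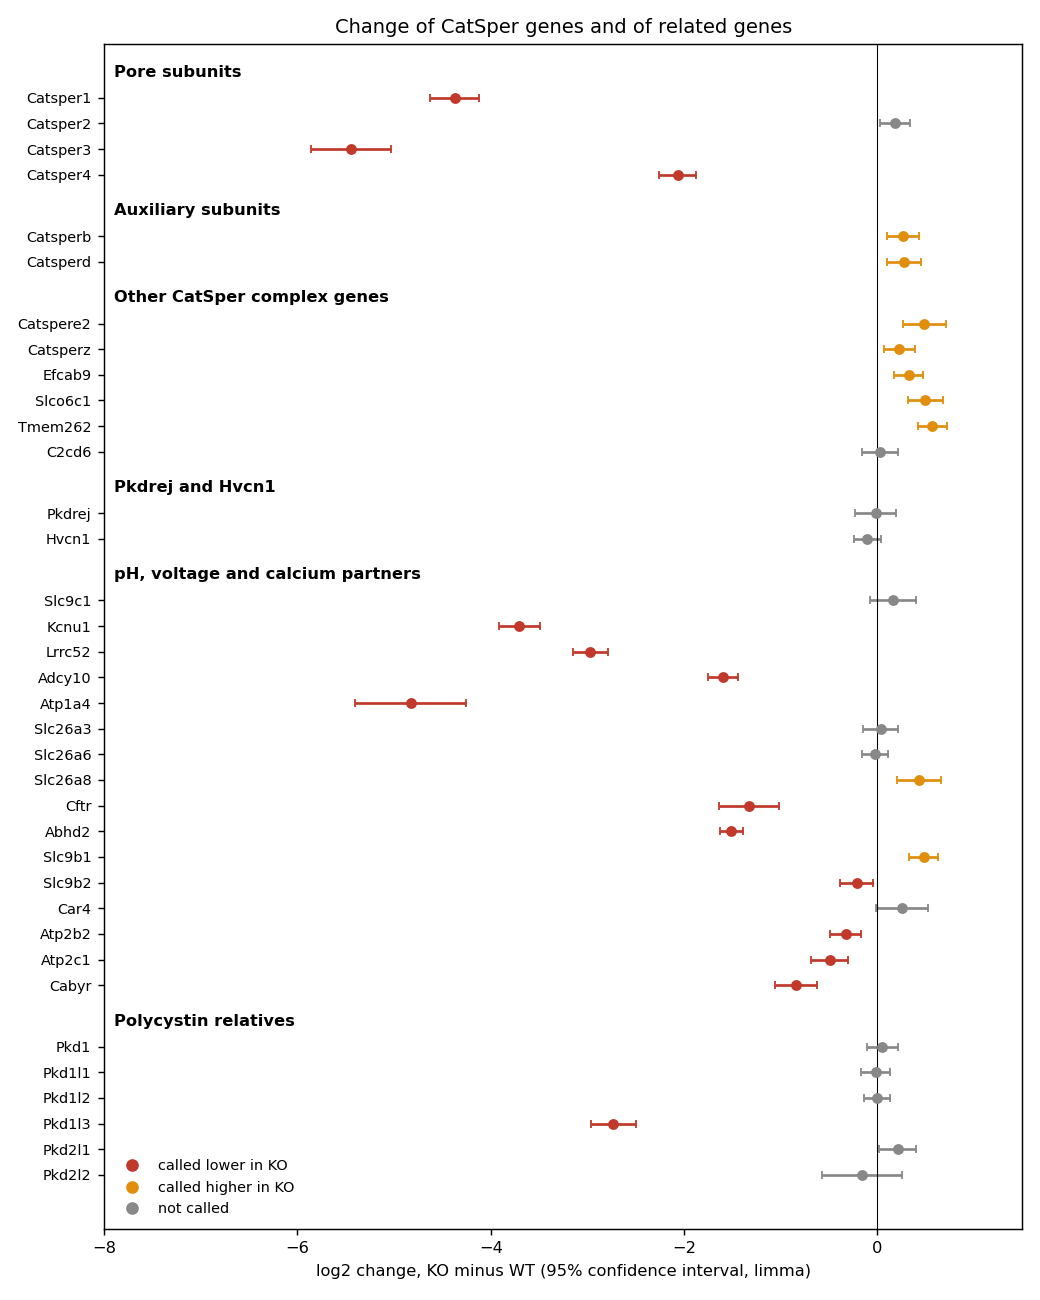
Log2 change, KO minus WT (horizontal axis, with 95% confidence intervals from limma, n = 5 arrays each), of the CatSper genes, of Pkdrej and Hvcn1 and of related genes, grouped by role and coloured by call. Catsper1, Catsper3 and Catsper4 lie between -5.44 and -2.07, and all other CatSper complex genes between 0.02 and 0.57.

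Pkdrej and Hvcn1 were not called. Pkdrej is a polycystin-family membrane protein of the sperm head, named for its likeness to the sea urchin receptor for egg jelly. Its level was 9.43, 9.40, 8.85, 9.24 and 9.11 in KO replicates 1 to 5, against 9.26, 9.12, 9.26, 9.24 and 9.23 in WT replicates 1 to 5. KO arrays were spread on both sides of WT, with replicate 3 the lowest, and means were 9.21 ± 0.24 in KO and 9.22 ± 0.057 in WT (SD, n = 5 each). The change was -0.02 ± 0.10 (SE, 95% CI -0.23 to 0.19, limma adjusted p = 0.909), and 0.07 without KO replicate 3. Hvcn1 encodes a voltage-gated proton channel that in human sperm lets protons out. It had 5.996, 6.14, 5.97, 5.98 and 5.86 in KO replicates 1 to 5, against 6.03, 6.06, 6.03, 6.19 and 6.15 in WT replicates 1 to 5. The groups overlapped, with means of 5.99 ± 0.10 in KO and 6.09 ± 0.073 in WT (SD, n = 5 each) and a change of -0.10 ± 0.06 (SE, 95% CI -0.24 to 0.03, adjusted p = 0.222). The level of Hvcn1 was low in both groups, so that a deep fall could not have been seen there.

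The list of genes that act on pH, voltage, bicarbonate signalling and calcium around CatSper in sperm held more falls than rises. This list was chosen with earlier results of these data known, and as a whole it was not tested. Of 17 listed, 16 were measured, 10 were called lower, 6 of them by at least 1, and 2 were called higher, with a median change of -0.41, beside 13.2% of all genes called lower and 31.1% higher. The largest was Atp1a4, the sperm sodium pump subunit, which had a lowest, median and highest level of 6.67, 7.86 and 8.33 in KO, against 12.37, 12.42 and 12.53 in WT (change -4.83 ± 0.27, SE, limma adjusted p = 4.5e-09). KO replicates 2 and 3 kept 5.37 and 5.79% of the WT mean, and replicates 1, 4 and 5 kept 4.19, 2.28 and 1.83%. The potassium channel that sets the voltage of mouse sperm is built from Kcnu1 (SLO3) and its partner Lrrc52, and both fell. Kcnu1 had 6.71, 7.12 and 7.24 in KO, against 10.57, 10.81 and 10.89 in WT (-3.70 ± 0.10, adjusted p = 4.3e-12). Lrrc52 had 6.57, 6.67 and 6.91 in KO, against 9.51, 9.65 and 9.81 in WT (-2.97 ± 0.08, adjusted p = 5.9e-12). Both were far below WT in every KO array, by margins larger than any spread within a group.

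Adcy10, the bicarbonate-activated soluble adenylyl cyclase, had 9.85, 10.03 and 10.25 in KO, against 11.56, 11.62 and 11.69 in WT (change -1.60 ± 0.07, SE, limma adjusted p = 5.0e-10). A few more partners are named here after their values were seen. Abhd2, the lipid hydrolase through which progesterone opens human CatSper, changed by -1.51 ± 0.06 (adjusted p = 5.6e-11), and Cftr, a chloride and bicarbonate channel, by -1.33 ± 0.14 (adjusted p = 5.5e-06). Slc9c1, the sperm sodium and proton exchanger, was not called at 0.16 ± 0.11 (adjusted p = 0.28). The rises were those of the transporters Slc9b1 (0.48 ± 0.07, adjusted p = 9.1e-05) and Slc26a8 (0.43 ± 0.11, adjusted p = 0.0054), the only partners called higher. The elongating spermatid markers that moved beside the pore subunits moved beside these genes too, and their part was not tested.

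Genes whose pattern was most like that of a pore subunit were found by the root mean square (RMS) difference of log2 levels over the 10 arrays, after each gene was centred on its WT mean. Nearest to Catsper1 were 1700014D04Rik (RMS 0.123, change -4.49), Ankrd53 (0.156, change -4.23) and Sppl2c (0.162, change -4.45). Nearest to Catsper3 were 4933400A11Rik (0.188, change -5.47), Antxrl (0.192, change -5.51) and Rnf148 (0.209, change -5.31). Nearest to Catsper4 were Gm9 (0.122, change -2.04), Prox2 (0.128, change -2.06) and Lmnb2 (0.136, change -2.22). Within an RMS of 0.5 lay 120 genes for Catsper1, 65 for Catsper3 and 312 for Catsper4. Catsper2 lay nearest to Grpel2 (0.0395, change 0.20), Fam178b (0.0484, change 0.21) and Dgat1 (0.0514, change 0.20), and within 0.5 of 17686 genes.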

How the data were processed

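Whole testis RNA of 5 Crem KO and 5 WT mice was measured on Affymetrix Mouse Gene 1.0 ST arrays. The authors made log2 values by RMA with the XPS package, from core meta-probesets with antigenomic background, and deposited the log2 level of each transcript cluster, which was used as given. Of 35557 features 9868 were empty in every array, leaving 25689. The annotation table gave 20777 a single symbol (20696 matched RefSeq), 232 several and 4680 none. The feature with the highest mean stood for each gene. Chip number limits the precision. The labels name a separate animal for each array.

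KO and WT were compared with limma 3.58.1 in R 4.3.3 (lmFit, eBayes, no covariate), two-sided, with Benjamini-Hochberg adjustment over all 25689 features and calls at an adjusted p under 0.05. This script was tested on simulated data. The members and lists were chosen with earlier results of these data known. Named genes were all members, Crem, every gene of the CatSper complex list, the 4 largest called changes of each related list and the 3 nearest genes of each pore subunit. Alternatives covered normalization, batch, filters, array weights and left-out arrays. The array centring on housekeeping genes used 8 of 12 listed, and sequences came from RefSeq (GRCm38.p6).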

Additional observations from a re-analysis of the deposited data

Results flagged for a closer look

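In 2 of 48 groups of 5 arrays an array stood apart from the rest by Dixon's test, where chance gives about 1 in 20. The genes tested were the members, Crem, the CatSper complex genes and the largest called changes of each related list. Catsper4 was at 8.464 in KO replicate 2, above 8.413 to 8.426 in the other KO arrays, a gap of 0.7415 of the range of KO. Pkdrej was at 9.125 in WT replicate 2, below 9.226 to 9.263 in the other WT arrays, a gap of 0.7336 of the range of WT. Both gaps are small on the log2 scale.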

How the results depend on the processing

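The falls of Catsper1, Catsper3 and Catsper4 held under all 22 alternatives (-4.55 to -4.13, -5.81 to -5.04 and -2.18 to -1.79, highest limma adjusted p 0.000151), and 3 members were lower throughout. Over all alternatives 478 values kept direction and call, 34 lost the call, 8 gained it and 8 turned in sign. These values cover the members, Crem, the CatSper complex genes and the largest called changes of each related list. Other genes named in the text, such as the nearest genes, were not included. Catsper2 was called after a further quantile normalization (0.22), median centring (0.20), array weights (0.21), trended robust eBayes (0.18), without the dimmest 25% of features (0.18) and without KO replicates 2 and 3 (0.24), and ran between 0.14 and 0.23 with single arrays left out, being called without KO replicate 2 (0.21) or WT replicate 5 (0.23). Catsperb lost its call with housekeeping centring (0.17), the batch block (0.15), batch 2 (0.29), batch 4 (0.017) and without KO replicates 2 and 3 (0.24, adjusted p = 0.0587), and Catsperd with housekeeping centring (0.18), the batch block (0.23), batch 2 (0.24) and batch 4 (0.22). Pkdrej turned positive with median centring (0.0015), in batch 4 (0.032), and without KO replicates 2 and 3 (0.034), replicate 3 (0.070) or replicate 5 (0.0068), its range with single arrays left out being -0.075 to 0.070. C2cd6 turned negative with housekeeping centring (-0.073) and without KO replicate 4 (-0.045) or WT replicate 1 (-0.023), its range with single arrays left out being -0.045 to 0.065. The cause was not tested.

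Members called higher numbered 0 with housekeeping centring, the batch block, batch 2 alone, batch 4 alone or a minimum change of 1, and 2 to 3 with single arrays left out. Other CatSper complex genes called higher numbered 3 in batch 2, 2 in batch 4 and 0 at a minimum change of 1. Partners called lower numbered 6 at that minimum, and those called higher 1 in batch 2, 1 in batch 4 and 0 at the minimum. Voltage-gated and related calcium channels called lower numbered 5 with housekeeping centring, 1 with median centring, the batch block, trended robust eBayes or without KO replicates 2 and 3, 0 in batch 2, batch 4 or at the minimum, and 1 to 2 with single arrays left out. Those called higher numbered 1 with the block and 0 with housekeeping centring, in either batch or at the minimum. Polycystins called higher numbered 1 with array weights and 0 to 1 with single arrays left out. Over all genes 2599 were lower and 6106 higher (70.1% of calls). Housekeeping centring, which moved the median of all genes by -0.10, gave 3687 lower and 3666 higher (49.9%). Calls were 1552 lower and 2208 higher in batch 2, 1584 and 1902 in batch 4, and 857 and 269 at a minimum change of 1.

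Within batches an arm holds 1 array, assumed to vary like the rest, and the fixed block rests on batches 2 and 4. No paired analysis was possible because the labels give no replicate number shared by KO and WT. RMA levels carry no detection call, so falls toward the low end of the scale are bounded by unknown background.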

Other observations

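Calcium channels outside the CatSper complex had small changes, none of 1 or more on the log2 scale. Of 13 voltage-gated, sodium leak and endolysosomal (TPC) channel genes, all measured, 2 were called lower, 3 higher and 8 neither, with a median change of 0.02, beside 13.2% of all genes called lower and 31.1% higher. Several lay low on the scale, such as Cacna1f at 5.67 in KO and 5.63 in WT (named after its values were seen), where a deep fall could not be seen. Nalcn, the sodium leak channel, had a lowest, median and highest level of 6.73, 6.86 and 6.94 in KO, against 7.16, 7.21 and 7.41 in WT (change -0.41 ± 0.07, SE, limma adjusted p = 0.00022). The rises were those of Cacna1b (0.26 ± 0.08, adjusted p = 0.0163), Tpcn1 (0.22 ± 0.06, adjusted p = 0.0138) and Cacna1g (0.19 ± 0.06, adjusted p = 0.016), none of them called with housekeeping centring.

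Of 7 polycystin genes related to Pkdrej, 6 were measured. Beside 13.2% of all genes called lower and 31.1% higher, Pkd1l3, known from taste receptor cells, was the only one of them called. It had 6.69, 7.09, 6.82, 6.66 and 6.69 in KO replicates 1 to 5, against 9.21, 9.67, 9.42, 9.58 and 9.73 in WT replicates 1 to 5. Every KO array lay below every WT array, and the change was -2.73 ± 0.11 (SE, limma adjusted p = 1.2e-10). Its value stayed on the same side of the threshold under all 22 alternatives.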
